A study of Mus musculus with 8 samples.

Results

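Isl1, Hand1, Hand2, Mef2a, Mef2c, Mef2d, Myocd, Smyd1 and Hopx, 9 regulators of early heart development, were followed through cardiac differentiation of mouse embryonic stem (ES) cells. They were taken by gene name from the probe annotation of the arrays, which carries 34737 names, and 16 of 55583 probes belonged to them. All 9 genes, and 15 of the 16 probes, passed the filter on dim probes, beside 25892 of all 34737 genes. RNA came from wild-type cells at day 0 and day 6 and from cells heterozygous for the R141C change in the homeobox gene Nkx2-5 (Nkx25 R141C in the labels) at the same days, with 2 biological replicates in each of the 4 groups. Day 0 cells were ES cells before differentiation. Day 6 cells of both genotypes had passed through embryoid bodies, made without LIF in hanging drops, grown in suspension and finally plated on gelatin. Whether a genotype was 1 clone or several is not given in the sources used here. Each sample was hybridized to 1 single-colour Agilent array, and all 8 arrays were on 1 slide, with the arrays of each group beside each other, so that neither day nor genotype can be told apart from slide position.

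These regulators act in one network in the embryo. Isl1, a LIM-homeodomain factor, marks progenitors of the second heart field, which add to the outflow tract and right ventricle. Hand1 and Hand2 are basic helix-loop-helix factors that pair with E proteins. Mef2a, Mef2c and Mef2d are MADS-box factors that bind A/T-rich sites in muscle genes and are held in check by class II histone deacetylases. Myocd (myocardin) is a coactivator of the MADS-box factor Srf in heart and smooth muscle, Smyd1 is a striated-muscle methyltransferase needed for ventricular growth, and Hopx is a small homeodomain protein that does not bind DNA and restrains Srf. Nkx2-5, the gene changed in the R141C cells, is a partner or upstream regulator of several of them. Outside the heart, Isl1 marks motor and sensory neurons and endocrine pancreas, Hand1 trophoblast and extraembryonic mesoderm, and Hand2 sympathetic neurons, so the markers of those cells were measured beside them.

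Levels are given as log2 signal relative to the 75th percentile of the same array, so that 0 is that percentile and a difference of 1 is a doubling. Between 30989 and 39185 probes per array (55.75% to 70.5%) were well above background by the scanner software's own flag, and no spot was saturated. Of 12 ES cell markers, 10 fell and none rose by day 6 in wild type. In R141C cells 9 fell and 1, Tbx3, rose (by 2.54; limma adjusted p = 0.0471). Zfp42 and Esrrb fell in both genotypes (Zfp42 by 5.00 in wild type, adjusted p = 0.000589). The mean of the 12 markers was between 3.98 and 4.94 on the day 0 arrays and between 1.77 and 2.37 on the day 6 arrays. The Nkx2-5 probe, which cannot tell the R141C transcript from the normal one, read -1.27 and -2.02 in wild type and 1.84 and -0.77 in R141C cells at day 0, and 1.93 and 1.79 in wild type and 1.53 and 1.58 in R141C cells at day 6. A gene was called changed at a limma adjusted p under 0.05. The model used all 8 arrays, and its p-values were adjusted over the 25892 tested genes.

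The largest changes in these genes came with differentiation. In wild type, 6 of the 9 regulators rose from day 0 to day 6 and none fell: Isl1, Hand1, Hand2, Mef2c, Mef2d and Myocd. In R141C cells 5 of the 9 rose, the same genes without Myocd. Over all genes tested, 24.0% were called in wild type and 11.0% were called higher at day 6, and in R141C cells 15.6% were called and 7.60% were called higher. The median difference of the 9 was 3.72 in wild type and 1.46 in R141C cells, beside -0.12 and -0.03 over all genes. The R141C median is the value of Myocd and was 2.94 without R141C replicate 1 at day 6 and 1.07 without replicate 2. These are bulk samples, in which more cells of a type and more RNA per cell cannot be told apart. The plot of signal by array shows all 9 genes.

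**Figure D1:**
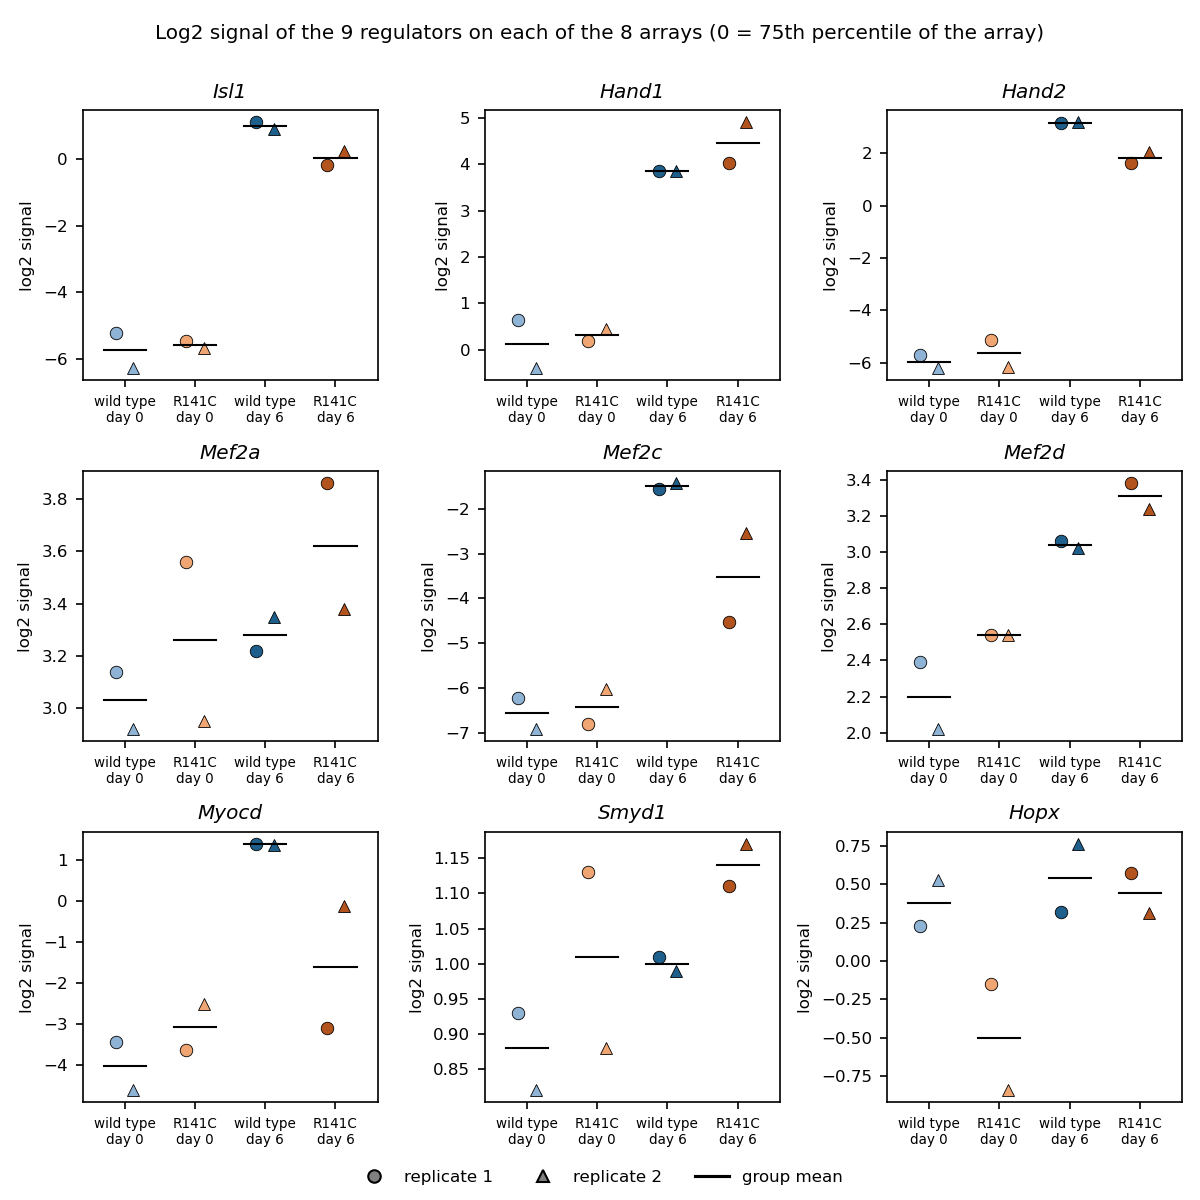
Log2 signal relative to the 75th percentile of each array (vertical axes, which differ between panels) for the probe that stands for each of the 9 regulators, in the 4 groups. Circles and triangles are replicates 1 and 2 and bars are group means. Isl1, Hand1, Hand2 and Mef2c are higher on all 4 day 6 arrays than on any day 0 array, whereas the Myocd values of the R141C arrays at day 6 lie apart, at -3.09 and -0.12.

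Isl1 was measured by 1 probe with 10 spots per array (chromosome 13, 117088774 to 117088833 of mm9). It read -5.20 and -6.26 in wild type and -5.45 and -5.67 in R141C cells at day 0. At day 6 it read 1.09 and 0.89 in wild type and -0.19 and 0.24 in R141C cells. The days did not overlap in either genotype, and at day 6 both R141C arrays were below both wild-type arrays. Isl1 rose by 6.72 ± 0.36 (SE; 105-fold; limma adjusted p = 0.00032) in wild type and by 5.58 ± 0.36 (47.8-fold; adjusted p = 0.000726) in R141C cells. Its day 0 signal was dim, so the fold depends on the background correction. With another correction (normexp, offset 50) the rise was 4.89 in wild type and 3.95 in R141C cells.

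Hand2 (probe at chromosome 8, 59803220 to 59803279 of mm9) had the largest rise of the 9. Its day 0 values were -5.73 and -6.21 in wild type and -5.13 and -6.17 in R141C cells, and the last of these 4 arrays did not show it well above background. Its day 6 values were 3.17 and 3.19 in wild type and 1.63 and 2.05 in R141C cells. The wild-type arrays at day 6 were nearly equal and both R141C arrays lay below them. The rise was 9.15 ± 0.37 (567-fold; limma adjusted p = 0.000248) in wild type and 7.49 ± 0.37 (179-fold; adjusted p = 0.000455) in R141C cells. As for Isl1, the fold rests on dim day 0 signals. With normexp (offset 50) the rise was 7.18 in wild type and 5.76 in R141C cells.

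Hand1 (probe at chromosome 11, 57642342 to 57642401 of mm9) had both R141C arrays above both wild-type arrays at day 6, unlike Isl1 and Hand2. It read 0.64 and -0.39 in wild type and 0.19 and 0.46 in R141C cells at day 0, and 3.85 and 3.85 in wild type and 4.03 and 4.90 in R141C cells at day 6. It rose by 3.72 ± 0.41 (13.2-fold; limma adjusted p = 0.00193) in wild type and by 4.13 ± 0.41 (17.6-fold; adjusted p = 0.00206) in R141C cells. Another Hand1 probe (57646257 to 57646316) was well above background on 1 array and was not tested.

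Among the MADS-box factors Mef2c moved most. Its probe was not well above background on any day 0 array (-6.22 and -6.92 in wild type, -6.80 and -6.03 in R141C cells) and was well above it on all 4 day 6 arrays, at -1.56 and -1.43 in wild type and -4.52 and -2.53 in R141C cells. The R141C arrays at day 6 were both lower than wild type and far from each other. Day 0 gives only a bound, taken from the lowest signal among probes well above background. By this bound Mef2c was at least 31.1-fold higher at day 6 in wild type (limma adjusted p = 0.00297). In R141C cells it was at least 5.56-fold higher (adjusted p = 0.0276). The bounds hold only for the background correction used. With normexp (offset 50) the log2 rises, 2.75 in wild type and 1.37 in R141C cells, were below them. The R141C call was lost, with adjusted p of 0.0517 to 0.139, without either day 0 R141C array, either day 6 wild-type array or R141C replicate 2 at day 6, and it was also lost in a fit of only the 4 R141C arrays (adjusted p = 0.0698). The probe joins exons: its 60 bases are spread over 2238 bases of chromosome 13 (83772788 to 83775025 of mm9), so unspliced RNA does not hold them as one run. It is shown with a Mef2d probe that also crosses an intron (60 bases over 347 bases, chromosome 3, 87972214 to 87972560) and with the Smyd1 probe at chromosome 6, 71212063 to 71212122, since the results for those genes depend on the probe. All are written 5′ to 3′ on the strand of the transcript as deposited.
Mef2c A_55_P2155620: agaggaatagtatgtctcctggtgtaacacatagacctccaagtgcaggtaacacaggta
Mef2d A_51_P504672: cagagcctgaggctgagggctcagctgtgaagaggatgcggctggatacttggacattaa
Smyd1 A_55_P2062495: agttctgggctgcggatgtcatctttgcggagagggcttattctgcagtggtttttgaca

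Mef2d and Mef2a were well above background on all 8 arrays. The brightest Mef2d probe (87975777 to 87975836 on chromosome 3) read 2.39 and 2.02 in wild type and 2.54 and 2.54 in R141C cells at day 0, and 3.06 and 3.02, then 3.38 and 3.24, at day 6. It rose by 0.84 ± 0.20 (1.79-fold; limma adjusted p = 0.0277) in wild type and by 0.77 ± 0.20 (1.71-fold; adjusted p = 0.048) in R141C cells. The rise was small and its call was unstable: without 1 array in turn it held in 5 of 8 fits in wild type, lost without wild-type day 0 replicate 2 or either wild-type day 6 array (adjusted p of 0.119 to 0.145). In R141C cells it held in 2 of 8, lost without any R141C array or either wild-type day 6 array (adjusted p of 0.0908 to 0.16). A fit of only the arrays compared lost both calls (adjusted p of 0.0512 and 0.134). The brightest Mef2a probe (chromosome 7, 74379575 to 74379634) read 3.14 and 2.92 in wild type and 3.56 and 2.95 in R141C cells at day 0, and 3.22 and 3.35, then 3.86 and 3.38, at day 6. Its differences between the days, 0.25 in wild type (95% interval -0.42 to 0.92) and 0.37 in R141C cells (-0.30 to 1.04), did not pass the test (limma adjusted p of 0.559 and 0.422).

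Myocd differed most between the replicates. Its probe (chromosome 11, 64991930 to 64991989) read -3.44 and -4.60 in wild type and -3.62 and -2.50 in R141C cells at day 0. At day 6 it read 1.37 and 1.36 in wild type, but -3.09 in replicate 1 and -0.12 in replicate 2 of the R141C cells. Replicate 1 of the R141C cells at day 6 thus lay within the range of the day 0 arrays and replicate 2 lay above them, while both were below wild type. Myocd rose by 5.39 ± 0.94 (42.0-fold; limma adjusted p = 0.00906) in wild type. The call in wild type was lost narrowly without either of its day 6 arrays (adjusted p of 0.0504 and 0.0545). In R141C cells the difference was 1.46 ± 0.94 (95% interval -0.78 to 3.69; adjusted p = 0.345). Without R141C replicate 2 at day 6 it was -0.02, and without replicate 1 it was 2.94 and passed (adjusted p = 0.0441), so the value rests on which of these arrays is kept.

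Smyd1 and Hopx did not pass the test between the days through the probes that stand for them. Smyd1 (probe at 71165337 to 71165396 on chromosome 6) read 0.93 and 0.82 in wild type and 1.13 and 0.88 in R141C cells at day 0, and 1.01 and 0.99, then 1.11 and 1.17, at day 6. All 8 values lay between 0.82 and 1.17, and the wild-type arrays of day 6 lay just above those of day 0. Hopx (chromosome 5, 77516624 to 77516683) read 0.23 and 0.53 in wild type and -0.15 and -0.84 in R141C cells at day 0, and 0.32 and 0.76, then 0.57 and 0.31, at day 6. The day 0 R141C arrays were the lowest for Hopx. Its day difference was 0.16 in wild type (95% interval -0.56 to 0.88; limma adjusted p = 0.74) and 0.94 in R141C cells (0.22 to 1.65; adjusted p = 0.0851).

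**Figure D2:**
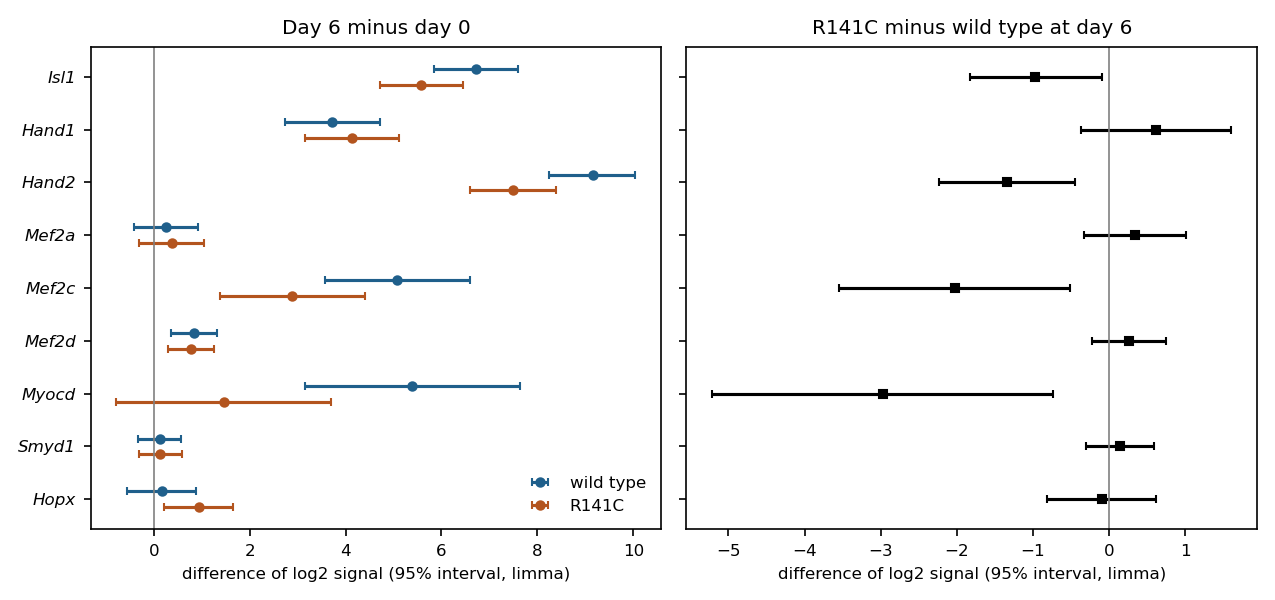
Differences of log2 signal with 95% intervals from limma, for day 6 minus day 0 in each genotype (left) and for R141C minus wild type at day 6 (right). Hand2 shows the largest day difference in both genotypes, 9.15 and 7.49, and Myocd the lowest genotype difference, -2.97, with the widest interval.

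Probes of the same gene did not all give the same account. When each of 37889 probes was tested on its own, an analysis added after the data had been seen, 9 of the 15 regulator probes rose in wild type and 5 in R141C cells, beside 10.0% and 6.84% of all probes called higher. The other Smyd1 probe, whose sequence is given above, read -5.19 and -6.50 in wild type (the latter not well above background) and -5.64 and -5.31 in R141C cells at day 0, and -3.14 and -2.77 in wild type and -4.50 and -3.49 in R141C cells at day 6. It rose by 2.89 (7.43-fold; limma adjusted p = 0.00895) in wild type, and its difference in R141C cells was 1.48 (adjusted p = 0.0981). Its day 6 arrays were all above its day 0 arrays, which the brighter Smyd1 probe did not show.

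Mef2a gave a similar split. Its probe at 74376573 to 74376632 read -1.50 and -1.50 in wild type at day 0 and -0.07 and 0.09 at day 6, a rise of 1.51 (limma adjusted p = 0.0135), with -1.63 and -0.93, then -0.66 and -0.18, in R141C cells (0.86; adjusted p = 0.101). The Mef2a probe at 74378751 to 74378810 rose by 1.14 in wild type (adjusted p = 0.0474) and by 1.43 in R141C cells (adjusted p = 0.0317). The brightest Mef2a probe, which did not pass, has 78.3% G or T among its bases, a higher share than 99.8% of all probes. The probe at 74376573 to 74376632 has 48.3%, above 37.6% of all probes, and the one at 74378751 to 74378810 has 66.7%, above 97.2%. The brighter Smyd1 probe has 65.0%, above 95.9% of all probes, and the dimmer one 68.3%, above 98.2%. The part of base composition in these differences was not tested.

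For Mef2d the probes split the other way. The probe across the intron, printed above, read -3.07 and -2.80 in wild type and -2.09 and -2.60 in R141C cells at day 0, and -2.79 and -2.88, then -2.37 and -2.60, at day 6, a difference of 0.10 in wild type (95% interval -0.50 to 0.69; limma adjusted p = 0.815). The Mef2d probe at 87972971 to 87973030 differed by 0.09 (-0.50 to 0.67; adjusted p = 0.832). Only 1 of the 3 Mef2d probes therefore showed the rise in wild type, and in the fit of single probes none passed in R141C cells (adjusted p = 0.0538 for the brightest). Both Hopx probes were alike in having their lowest values in R141C cells at day 0. With the mean of all probes of a gene in place of the brightest one, Mef2a (0.97; adjusted p = 0.0183) and Smyd1 (1.51; adjusted p = 0.0137) were called in wild type and Mef2d was not (0.34; adjusted p = 0.249). In R141C cells Mef2a was called (0.89; adjusted p = 0.0342) and Mef2d was not (0.16; adjusted p = 0.621).

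**Figure D3:**
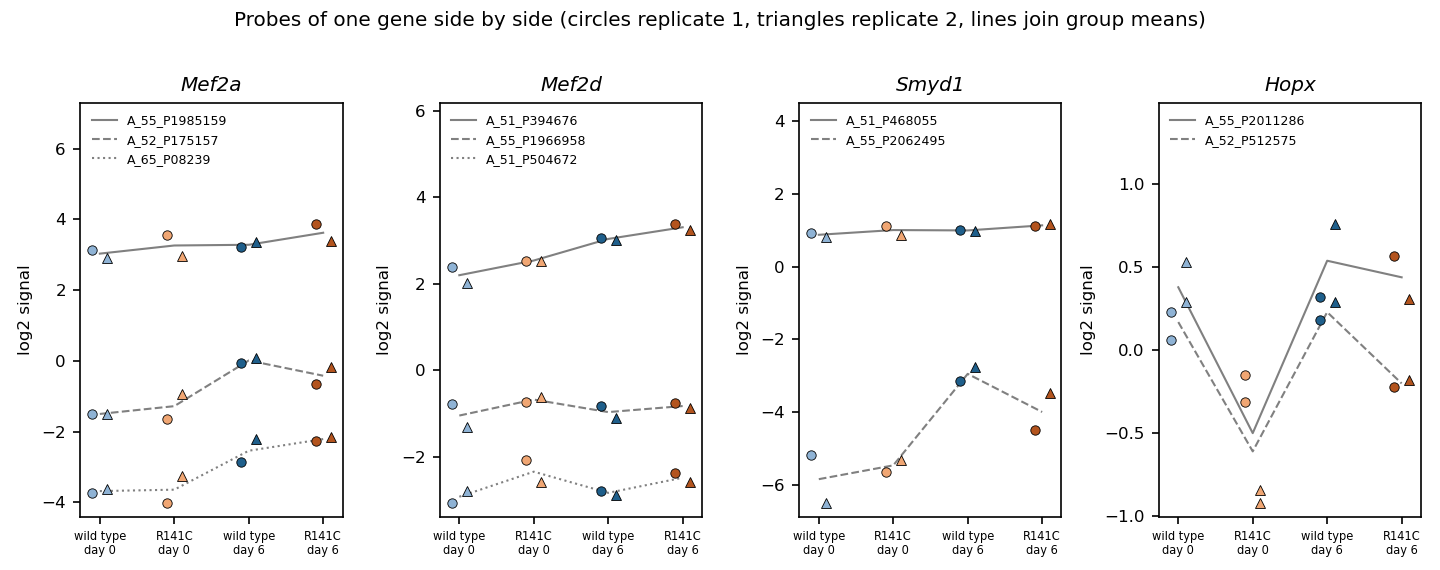
Log2 signal relative to the 75th percentile of the array for all tested probes of Mef2a, Mef2d, Smyd1 and Hopx in the 4 groups, with circles for replicate 1, triangles for replicate 2 and lines joining the group means of a probe. Heights are not comparable between probes. The dimmer Smyd1 probe rose by 2.89 in wild type while the brighter one stayed between 0.82 and 1.17, and 1 of 3 Mef2d probes rose in wild type.

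Between the genotypes at day 6 none of the 9 regulators was called, and 0.0657% of all genes were (17 genes). Myocd had the largest difference, -2.97 in R141C against wild type (95% interval -5.21 to -0.74; unadjusted p = 0.0166; limma adjusted p = 0.456). Mef2c was -2.03 (-3.55 to -0.51; adjusted p = 0.456), Hand2 -1.34 (-2.23 to -0.45; adjusted p = 0.411) and Isl1 -0.97 (-1.83 to -0.10; adjusted p = 0.536). These 4 are the regulators whose intervals leave out 0 before adjustment over all genes. Over all 25892 genes tested, 2210 had an unadjusted limma p under 0.05. All 4 regulators were lower on both R141C arrays than on both wild-type arrays. Hand1, at 0.61 (-0.37 to 1.60; adjusted p = 0.725), was the largest positive value. Mef2a (0.34), Mef2d (0.26), Smyd1 (0.14) and Hopx (-0.10) had intervals that held 0. These are the brightest probes. In the fit of single probes the dimmer Smyd1 probe was at -1.04 (-2.24 to 0.15; limma adjusted p = 0.614), lower on both R141C arrays. The other Mef2a probes were at -0.43 and 0.33, those of Mef2d at 0.14 and 0.35 and that of Hopx at -0.44. None of the 15 probes was called. The arrays of the genotypes did not overlap for 8 of the 9 genes, all but Hopx, beside 44.3% of all genes tested. The median of the 9 was -0.10 (-0.33 to 0.12 without 1 array in turn), beside 0.07 over all genes.

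The spread between the R141C replicates at day 6 was wide for some of the same genes. Replicate 2 exceeded replicate 1 by 2.96 for Myocd, a gap that 0.5% of genes surpassed in size, and by 1.98 for Mef2c, which 2.1% surpassed. For Hand1 the gap was 0.87, for Isl1 0.43 and for Hand2 0.42. The median size of this gap over all genes was 0.36, and between the wild-type arrays at day 6 it was 0.17. Left without R141C replicate 2, the genotype difference was -4.45 for Myocd (limma adjusted p = 0.0674) and -3.02 for Mef2c, and without replicate 1 it was -1.49 and -1.04. Hand2 stayed between -1.55 and -1.13 and Isl1 between -1.18 and -0.75 whichever array was left out.

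At day 0 none of the 9 regulators was called between the genotypes, as 0% of all genes were, with 1165 genes at an unadjusted p under 0.05. Hopx was the only regulator that was lower in the R141C mean, by 0.88 (95% interval -1.60 to -0.16; unadjusted p = 0.0235; limma adjusted p = 1). Mef2d was higher by 0.33 (-0.15 to 0.82). The other 7 also had intervals that held 0. Of these Mef2c was above background on no day 0 array, and the rest differed by 0.13 to 0.96. The interaction of genotype and day, which is the R141C minus wild-type difference at day 6 less that at day 0, was not called for any regulator, and for 0% of all genes (1461 at an unadjusted p under 0.05). It was -3.93 for Myocd (-7.09 to -0.77; adjusted p = 0.826), -1.66 for Hand2 (-2.93 to -0.40; adjusted p = 0.787) and -1.14 for Isl1 (-2.37 to 0.09; adjusted p = 0.883). For Mef2c it has no measured size, since no day 0 array had it well above background. Hence the missing call of Myocd in R141C differentiation is not shown to differ from the call in wild type. These 5 comparisons share groups, so their values are not independent of each other.

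Genes that work with the regulators were taken from lists. Among 20 partners of Hand factors and Isl1, 7 rose in wild type and none fell (median 1.08), and 5 rose in R141C cells (median 0.59). Twist1, a related helix-loop-helix factor, rose by 4.68 in wild type (limma adjusted p = 0.0026) and by 2.35 in R141C cells (adjusted p = 0.0364). Lmo2, a LIM-only protein, rose by 4.28 (adjusted p = 0.00515) and 5.07 (adjusted p = 0.00452), and Ldb2, a LIM-domain-binding cofactor, by 4.27 (adjusted p = 0.00107) and 4.09 (adjusted p = 0.00189). Twist2 rose by 3.29 in wild type and was at 1.98 in R141C cells (adjusted p = 0.0604), and Kdm6b, a histone demethylase, rose by 1.82 and 1.68. Of 19 partners and repressors of Mef2 factors and myocardin, 5 rose and 1 fell in wild type (median 0.29), and 3 rose and 1 fell in R141C cells (median 0.11). Hdac7, a class II deacetylase, rose by 2.06 in wild type (adjusted p = 0.0119) and 1.54 in R141C cells (adjusted p = 0.042). Ncoa2, a coactivator, rose by 1.35 and 1.27. Camk2d, a kinase that acts on class II deacetylases, and Mrtfb, a myocardin relative, rose in wild type by 1.83 and 1.14 and were at 0.61 (adjusted p = 0.408) and 0.43 (adjusted p = 0.308) in R141C cells. Srf fell by 0.81 in R141C cells (adjusted p = 0.033) and was -0.62 in wild type (adjusted p = 0.0567).

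The other cardiac transcription factors were taken as a list too. Of 21 core factors, 13 rose and none fell in wild type (median 3.31), and 10 rose and 1 fell in R141C cells (median 2.40). Gata6 rose by 7.17 in wild type and 5.80 in R141C cells, Mesp1 by 7.0 and 7.08, Tbx2 by 6.64 and 5.16 and Gata4 by 5.47 and 4.94. Tbx5 was not well above background on any day 0 array. By the kind of bound used for Mef2c it was at least 143-fold higher at day 6 in wild type (limma adjusted p = 0.000993). In R141C cells it was at least 12.3-fold higher (adjusted p = 0.0106). These bounds, too, hold only for the background correction used. Of 20 genes of the second heart field, where Isl1 acts, 14 rose in wild type (median 3.20), and 10 rose and 1 fell in R141C cells (median 2.01). Foxf1 rose by 8.04 and 7.38, Nrp1 by 6.16 and 4.89 and Foxc2 by 7.82 and 3.65, and Fgf10, a ligand made by these progenitors, by 4.62 and 4.82, in wild type and in R141C cells. Of 23 reported targets of Mef2 factors, myocardin, Hand2 or Smyd1, 11 rose and 3 fell in wild type (median 1.75), and 1 rose and 2 fell in R141C cells (median 0.17, or 0 with genes not above background at their bounds). Tnnt2 (9.15), Myl7 (6.87), Myl3 (5.75) and Actc1 (5.73), which encode parts of the contractile apparatus, had the largest rises in wild type. In R141C cells Tnnt2 rose by 4.66 (adjusted p = 0.0392), while Myl7 (2.77; adjusted p = 0.195), Myl3 (3.10; adjusted p = 0.0843) and Actc1 (-0.09; adjusted p = 0.975) did not pass. Cnn1, a smooth muscle protein, fell by 2.55 in R141C cells and was at 0.02 in wild type (adjusted p = 0.983), and Klf2 fell by 2.38 in wild type and by 2.18 in R141C cells. These lists share genes with each other and with the markers below. Klf2, listed as a target, and Tbx3, listed as a core factor, are also among the 12 ES cell markers above.

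At day 6 no gene of any of these lists was called between the genotypes. The medians of R141C against wild type were -1.73 for the reported targets (19 of 23 lower), -0.47 for the second heart field (12 of 20 lower), -0.33 for the core factors (15 of 21 lower), -0.22 for the Hand and Isl1 partners (13 of 20 lower) and 0.06 for the Mef2 and myocardin partners (9 of 19 lower). Over all genes tested the median was 0.07, and the share of all genes that were lower was not counted. The most brightly measured targets, Tagln and Acta2, were at -0.94 (limma adjusted p = 0.753) and -0.95 (adjusted p = 0.828).

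Markers of the cells in which the regulators are found were measured on the same arrays. The mean log2 signal of 14 cardiomyocyte markers was 1.89 and 2.16 on the wild-type arrays at day 6 and -2.19 and 0.66 on the R141C arrays, in replicate order, against -3.08 to -1.90 at day 0. Of these 14, 13 were well above background on each wild-type array and 11 and 13 on the R141C arrays, and Pln was above it on none of the 8 arrays. All 13 tested cardiomyocyte markers were lower in the R141C mean at day 6 (median -3.41) without a call, among them Actc1 (-3.87; limma adjusted p = 0.536) and Myh6 (-3.89; adjusted p = 0.413). R141C replicate 1 was thus the lower array for the cardiomyocyte markers, as for Myocd, Mef2c and the dimmer Smyd1 probe. It was also the lower of the R141C arrays for Isl1, Hand1, Hand2 and, by 0.06, the brighter Smyd1 probe. It was the higher for the brightest probes of Mef2a, Mef2d and Hopx. The 8 markers of smooth muscle, in which Myocd also acts, averaged 0.02 and -1.18 in wild type and -0.18 and 1.13 in R141C cells at day 0. At day 6 they averaged -0.01 and 0.74 in wild type and -0.75 and -0.23 in R141C cells. Of 7 tested, 1 rose in wild type, and none rose and 1 fell in R141C cells. All 7 were higher in the R141C mean at day 0 and lower at day 6, without a call. The part of the amount of muscle cells in the regulators' values was not tested.

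**Figure D4:**
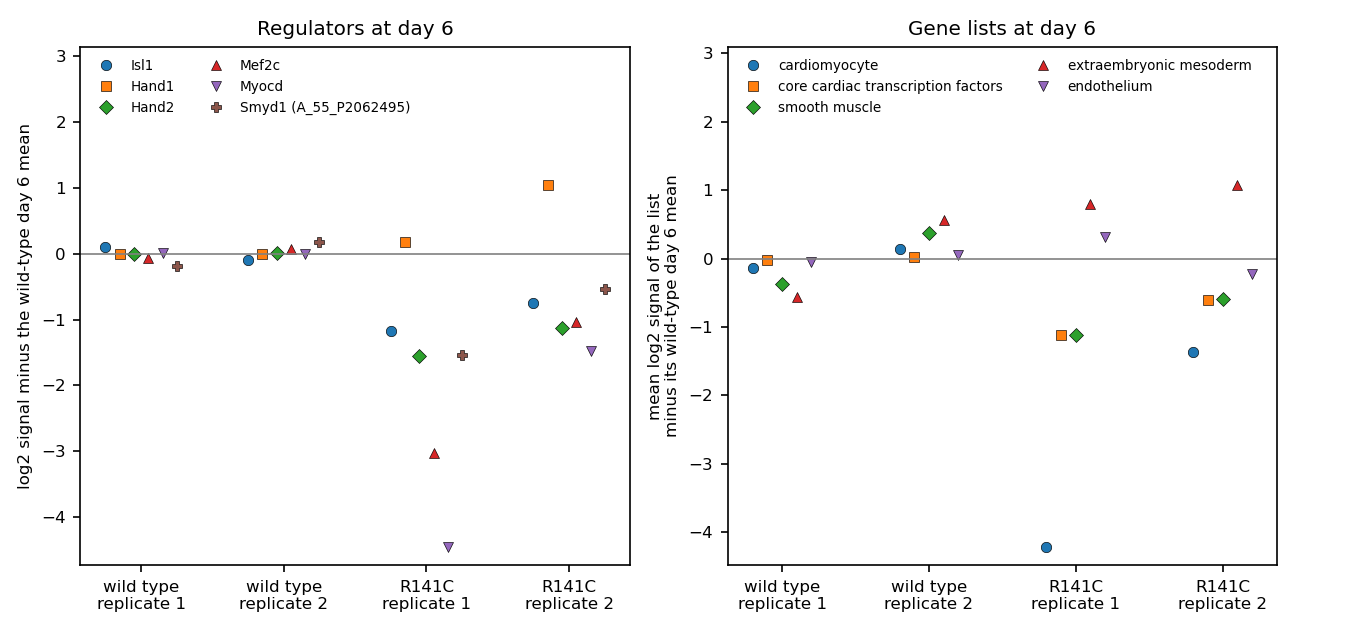
The 4 arrays of day 6, each as log2 signal minus the wild-type mean of day 6, for 6 regulator probes (left) and for the mean of 5 gene lists (right). On R141C replicate 1, Myocd (-4.46), Mef2c (-3.02) and the cardiomyocyte mean (-4.22) are at their lowest. So are Isl1 (-1.18), Hand2 (-1.55), the Smyd1 probe (-1.54) and the means of the core factors and smooth muscle (both -1.12). Hand1 (1.05) and the extraembryonic mesoderm mean (1.08) are highest on R141C replicate 2.

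Hand1, which had the largest positive genotype difference of the 9 at day 6, was set beside the markers of its other tissues. The 11 extraembryonic mesoderm markers averaged -0.18 and 0.94 in wild type and 1.18 and 1.46 in R141C cells at day 6. Of them 10 of 11 were higher in the R141C mean (median 0.64, none called). At day 0 the list averaged -1.88 and -3.16 in wild type and -2.18 and -1.74 in R141C cells, so the arrays of the genotypes overlapped. There 8 of 11 were higher in the R141C mean and none was called. The median was 0.64, or 0.50 with the genes not above background at their bounds. With differentiation 4 rose in each genotype, with Foxf1, Pitx1, Hoxa13 and Plac1 as the 4. The 11 trophoblast markers on the array averaged 0.25 and 0.45 in wild type and 1.15 and 1.06 in R141C cells at day 6, with Tpbpa above background on no array. At day 0 they averaged 0.50 and -0.49 in wild type and 0.74 and 0.37 in R141C cells. Of 10 tested, 8 were higher in the R141C mean at day 6 (median 0.51, or 0.26 with bounds). At day 0, 6 were higher (median 0.45), and none was called at either day. Of 10 tested trophoblast markers 2 rose and 1 fell in wild type and 2 rose in R141C cells, and Cdx2 and Plac1 were the risers. The part of these tissues in the Hand1 values was not tested.

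The neural and endocrine markers, which bear on Isl1 and Hand2, went in both directions. Of 10 tested motor and sensory neuron markers none rose and 5 fell in each genotype, with Lhx3 at -2.30 in wild type and -2.31 in R141C cells, and the list averaged -3.02 to -2.56 at day 6. Of 10 sympathetic neuron and neural crest markers 2 rose and 1 fell in each genotype: Snai2 (5.02 and 4.07) and Dbh (1.65 in wild type, at least 2.68-fold in R141C cells, where no day 0 array was above background) rose, and Foxd3 (-3.44 and -4.47) fell. Of 10 pancreatic endocrine and foregut markers 4 rose and 3 fell in wild type and 2 rose and 3 fell in R141C cells. The endoderm factors Foxa2 (7.13 and 5.59) and Sox17 (6.11 and 6.60) rose in both genotypes. The endocrine genes went both ways: Neurog3, Neurod1 and Ins1 fell in both genotypes, while Nkx6-1 (2.59) and Sst (2.35) rose in wild type. In R141C cells Nkx6-1 was at 0.87 (limma adjusted p = 0.105) and Sst at -0.13 (adjusted p = 0.908). Gcg was above background on no array. Endothelial markers rose in 9 of 12 cases in wild type and 8 of 12 in R141C cells, with Cdh5 at 7.17 and 6.58, and their means at day 6 were 0.14 and 0.24 in wild type and 0.50 and -0.04 in R141C cells. Skeletal muscle markers, which Mef2 factors and Smyd1 could also accompany, averaged -4.78 to -4.74 at day 6, with Myf5 above background on no array, and 1 of 8 rose and 3 fell in wild type and none was called in R141C cells.

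For the 5 regulators whose group means spanned more than 2 on the log2 scale, the genes most like them over the 8 arrays were sought among all tested genes by Pearson's r. The arrays share their scaling and 2 days of sampling, so r is high for many genes that differ between the days, and it is given as a description. For Isl1 they were Phf1 (0.9983), Icam2 (0.9982) and Kif12 (0.9976), and for Hand2 Fgb (0.9971), Kif12 (0.9971) and Aqp1 (0.9966). For Hand1 they were Matn2 (0.9939), Cldn11 (0.9938) and Defa36 (0.9934). For Mef2c they were Rasgrf1 (0.997), Nebl (0.9961) and Spon2 (0.9958), and for Myocd Col6a2 (0.9959), Sh3bgr (0.9955) and Cd36 (0.9946). Nebl, which encodes an actin-binding protein of the cardiac Z-disc, was well above background on no day 0 array and had day 6 means of -0.49 in wild type and -3.22 in R141C cells. Kif12, Fgb, Aqp1 and Cd36 were also above it on no day 0 array. Sh3bgr went from -0.23 to 3.51 in wild type and from 0.68 to 1.60 in R141C cells. The likeness of Isl1 and Hand2 to each other was 0.997.

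Promoter sequence was available for 7 of the 9 genes, as 10 windows of 250 bases before a RefSeq start site (GRCm38.p6). Isl1 and Hand2, which rose most and moved alike, and Smyd1, which has a match to an Nkx2-5 site, are shown 5′ to 3′ on the strand of the gene. Capitals mark matches, on either strand, to the GATA site TGATAA (Isl1 and Hand2), the E-box CATCTG (Hand2) and the Nkx2-5 site TAAGTG (Smyd1). The windows are chr13:116309689-116309938 (minus strand) for Isl1, chr8:57320733-57320982 (plus strand) for Hand2 and chr6:71262282-71262531 (minus strand) for Smyd1.
Isl1: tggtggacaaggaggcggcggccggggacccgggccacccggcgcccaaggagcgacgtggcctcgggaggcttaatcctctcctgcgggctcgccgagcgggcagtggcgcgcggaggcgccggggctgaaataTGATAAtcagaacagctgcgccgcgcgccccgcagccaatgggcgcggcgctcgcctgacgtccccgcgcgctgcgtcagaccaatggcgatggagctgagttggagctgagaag
Hand2: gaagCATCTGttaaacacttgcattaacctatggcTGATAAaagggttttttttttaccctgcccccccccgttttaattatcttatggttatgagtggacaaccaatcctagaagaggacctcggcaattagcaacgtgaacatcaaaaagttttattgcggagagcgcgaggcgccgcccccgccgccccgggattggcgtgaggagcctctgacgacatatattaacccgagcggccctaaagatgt
Smyd1: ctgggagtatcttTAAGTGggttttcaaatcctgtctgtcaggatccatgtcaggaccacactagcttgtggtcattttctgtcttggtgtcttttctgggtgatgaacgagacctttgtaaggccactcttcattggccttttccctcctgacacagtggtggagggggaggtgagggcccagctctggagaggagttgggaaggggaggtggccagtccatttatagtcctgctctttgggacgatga

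TGATAA was found in 7.94% of all 32851 windows of this length, CATCTG in 14.4% and TAAGTG in 7.92%. Counted from the start site, TGATAA began at -115 in Isl1 and at -215 in Hand2. CATCTG, which is one form of CANNTG (66.2% of windows), was found in Hand2 and in 1 of 3 Mef2c windows, and TAAGTG in Smyd1, at -237, and in 1 of 2 Hopx windows. A CArG box, the Srf site, was found in the other Hopx window and in 1.47% of all windows. No regulator window held the MEF2 site that 2.92% of all windows held, which says only that these letters are not in these windows.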

How the data were processed

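Single-colour Agilent arrays measured RNA of 8 samples, 2 in each of 4 groups. Per the file headers, scanner files came from Agilent Feature Extraction 11.5.1.1, while the submitters' processing notes give 10.5.1.1. The deposited processed signal is a linear intensity with background removed, and arrays were not brought to a common scale. Mean and background signals are deposited intensity values too, and deposited spot flags (other) are 0 or 1. The deposited series matrix holds log2 values that correlated with log2 processed signal of the same array (r of 0.9995 to 0.9999). Its medians of 8.99 to 9.04 are nearly equal, and its scaling is not stated.

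Outlier spots (131 to 251 of 59305 per array) were dropped, spots of a probe averaged, and log2 processed signal shifted to a 75th percentile of 0 per array. Matching to current mouse symbols renamed 2029 probes. The brightest probe stood for a gene, tested if 1 or more groups had it well above background on both their arrays. Bounds ("at least") use the lowest signal among probes well above background and hold only for the background correction used. The deposited design calls the samples biological replicates, and their number limits the precision. Genes were tested in limma 3.58.1 (R 4.3.3, data.table of version 1.17.8), with 4 group means (residual degrees of freedom 4, prior 2.70), two-sided, with Benjamini-Hochberg adjusted p-values, called at an adjusted p under 0.05. The steps were tested on simulated data. Figures used Python 3.11.15 and matplotlib 3.10.9.

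The regulators and lists were chosen with earlier results of these data known. All 9 are named throughout. Each list gives up to 4 called genes of the largest change, or 2 of the highest signal. For regulators spanning over 2 (log2), the 3 most correlated genes are named. Genes named outside this rule (Nkx2-5, and list genes in the genotype where the rule did not pick them) were chosen after their values were seen. The replicate numbers shared by the groups were not taken to pair samples. Alternatives were quantile and median scaling, normexp background (offset 50), the series matrix, other filters, a mean over probes, a replicate block, only the arrays compared, and each array left out. Added after seeing the data were each probe on its own and a crossed block.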

Additional observations from a re-analysis of the deposited data

How the results depend on the processing

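The calls of Isl1, Hand1 and Hand2 between the days held in both genotypes under every alternative that gave a value, and no regulator was called between the genotypes or for the interaction of genotype and day under any. With a filter on all 8 arrays Hand2 and Mef2c gave no value, and the count called in R141C differentiation was 3 of 7 in place of 5 of 9. It was also 3 with only the arrays compared, and 3 to 5 leaving out 1 array in turn (limma). A fit of only the arrays compared was not possible for the interaction. In wild type the count was 4 to 8 over all these settings.

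Some values of single regulators changed sign. The interaction of Smyd1 was -0.01 with quantile and -0.09 with median scaling. With the mean of probes, R141C against wild type at day 6 was -0.34 for Hand1 and -0.45 for Smyd1, and -0.15 for Hand1 at day 0. The interaction was then -0.19 for Hand1, -0.08 for Mef2a and -0.70 for Smyd1. The mean for Hand1 takes in its other probe, which did not pass the filter on dim probes. That probe was well above background on 1 array, of day 0, and its day 6 means were -6.05 in wild type and -7.33 in R141C cells. Leaving out 1 array in turn, the interaction ranged from -0.10 to 0.93 for Hand1, -0.12 to 0.14 for Smyd1, -0.25 to 0.12 for Mef2d and -0.19 to 0.42 for Mef2a. The day 0 genotype difference ranged from -0.35 to 0.70 for Isl1, -0.32 to 0.71 for Hand1, -0.23 to 0.54 for Mef2c (between signals not above background), -0.20 to 0.84 for Hand2 and -0.08 to 0.53 for Mef2a. Hopx ranged from -0.33 to 0.12 between genotypes at day 6 and from -0.06 to 0.38 between the days in wild type, and Myocd from -0.02 to 2.94 between the days in R141C cells. The cause was not tested.

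Replicate numbers were checked for pairing: correlations of replicate differences ran from -0.136 (both genotypes at day 0) to 0.339 (R141C at both days). With a replicate block 6 regulators were called in wild type and 4 in R141C differentiation, where Mef2d had an adjusted p of 0.054, and 0 in the other comparisons. The crossed block at day 0 called 0 regulators and 0 of all genes.

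Median scaling moved the median of all genes in wild-type differentiation from -0.118 to 0.004. Over all genes, 17 were called between genotypes at day 6, but 5 with normexp, 1 with the series matrix, 8 without either wild-type day 0 array, 117 without R141C replicate 2 at day 6, and 0 without any of the other 5 arrays, with no filter, the filter on all arrays, only the arrays compared or the block. At day 0, 1 was called with normexp and 1 with the filter on all arrays. For the interaction, 7 were called with quantile scaling and 1 with the series matrix. In wild-type differentiation 6205 fell to 4014, 2474 and 2151 without day 0 replicate 2 and day 6 replicates 1 and 2. In R141C differentiation 4049 fell to 1619 and 2424 without day 0 replicates 1 and 2, 2552 without either wild-type day 6 array, 2572 without R141C day 6 replicate 1 and 2458 with only the arrays compared. Signals near background, as for Mef2c at day 0, limit folds to bounds. The size of a rise from dim signals depends on the background correction. With normexp the rises of Isl1, Hand2 and Mef2c were smaller in both genotypes.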
